A study of Mus musculus with 37 samples.

Results

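The cells described here were the macrophages of the injured mouse heart that carried the lower levels of MHC class II transcripts, 7 days after myocardial infarction. They numbered 2684 of 12807 deposited barcodes, with 1458 of 7460 in the ENPP1CKO library and 1226 of 5347 in the control library. A barcode was taken as a macrophage when the complement genes C1qa, C1qb and C1qc made up at least 0.3% of its counts, the collagen and matrix genes Col1a1, Col1a2, Col3a1 and Dcn less than 0.5%, and when a further gate, on a small set of genes that includes Ccl24 and Slpi, held fewer than 3 counts. These 3579 macrophages of both libraries were ranked together by the share of counts in H2-Aa, H2-Ab1, H2-Eb1 and Cd74, and the lower 75% were kept. The other 895 cells are called the MHC class II high macrophages. The members were thus chosen by the measured values of the genes of these gates and of the ranking, whose levels are given as descriptions.

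The study asked how loss of ENPP1, an enzyme that splits extracellular ATP, in cardiac fibroblasts alters the repair of the infarcted heart. Nonmyocytes were isolated on day 7 after the anterior coronary artery had been tied off for good and sequenced as single cells, with 1 library per genotype. In ENPP1CKO mice, floxed ENPP1 alleles were removed by Col1a2CreERT, a tamoxifen-inducible Cre driven by a fibroblast collagen promoter, with tamoxifen given from before the injury until day 7. The control library is labelled wild type, and both were from C57BL/6 mice. The driver belongs to collagen-producing cells, so the macrophages described here were not its target. How many hearts entered a library is not given in the sources used here. With 1 library per genotype no test between genotypes was possible and no p-value is given. All intervals are exact 95% intervals that cover counting error only.

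Macrophages of the heart come from embryonic precursors that renew in place and from blood monocytes that enter after injury. Resident macrophages commonly carry Timd4, Lyve1 and Folr2 and little Ccr2, the chemokine receptor that brings monocytes in. Macrophages that have engulfed dead cells and their lipids switch on Trem2, a lipid receptor, Gpnmb, a lysosomal glycoprotein, and Spp1 (osteopontin). MHC class II molecules present peptides to CD4+ T cells, and their level separates macrophage states in the heart.

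Beside the results below, the following properties of the libraries apply. The members had medians of 3308.5 and 3689 counts per cell in the ENPP1CKO and control libraries. The deepest member had 15964 counts and the shallowest 504. Their summed counts were 5122614 and 4793846. The gate that includes Ccl24 and Slpi took a larger share of the macrophages from the control than from the ENPP1CKO library. Without it and with the ranking repeated, an alternative chosen after seeing the data, there were 1432 and 1550 members. Of 8528 genes with at least 50 counts, 271 were then past 1.5-fold higher and 781 lower in ENPP1CKO members. With the gate these were 278 and 471 of 8274. Scrublet marked 15 and 6 members as doublets, and the main values kept them. The libraries shared 68 barcode sequences, of which 2 were members in both. Over all genes, the median ENPP1CKO over control ratio in members was -0.05 on the log2 scale. Markers of some other cell types also differed between the libraries within these macrophages. All 6 measured cardiomyocyte markers were past 1.5-fold higher in ENPP1CKO members, at a summed 75.9 against 21.7 counts per 1000000 counts (CPM) for the list. Of 5 measured endothelial markers 4 were higher (298 against 124 CPM for the list), of 4 B or plasma cell markers 3 were higher (223 against 113 CPM), and of 3 neutrophil markers 2 were lower (33.2 against 74.7 CPM). Smooth muscle and pericyte markers had 3 of 4 higher and 1 lower, at 73.8 against 44.0 CPM, of which Tagln (0.65) was at -0.90 without doublets and low-quality barcodes and at -0.0748 when thinned, and Acta2 (-0.67) at 0.0729 with the fibroblast profile subtracted. Of 11 fibroblast markers 1 was higher and 1 lower, at 923 against 793 CPM. The only measured T or NK marker was within 1.5-fold (163.6 against 118.7 CPM for the list). The only measured dendritic marker, Ifi205, was lower, at -0.81 on the log2 scale (11.3 against 13.98 CPM for the list). The part of these transcripts in the results was not tested.

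The label of these cells names Gpnmb, Trem2, Ccl8, Ms4a7 and Fcrls, and all 5 were present. Ms4a7, a membrane protein of tissue macrophages, stood at 4662 CPM (4603 to 4722) in ENPP1CKO and 4494 CPM (4434 to 4554) in control macrophages. A count of Ms4a7 was found in 97.8% and 92.9% of members, against 10.0% and 20.8% of fibroblasts, which should lack it. Trem2 stood at 1074 CPM (1046 to 1103) and 1200 CPM (1170 to 1232). It was found in 86.4% and 86.9% of members, against 4.38% and 9.73% of fibroblasts. Fcrls, an Fc receptor-like scavenger receptor, stood at 1044 CPM (1016 to 1072) and 892 CPM (866 to 920). These markers were thus general to the members of both libraries and differed between genotypes by 0.05, -0.16 and 0.23 on the log2 scale, in the order given. Ccl8, a chemokine, and Gpnmb were found in fewer of the members. Ccl8 counts were in 28.8% and 34.6% of members, against 3.25% and 7.11% of fibroblasts, and Gpnmb counts in 24.5% and 41.8%, against 3.34% and 4.74% of fibroblasts. In MHC class II high macrophages these shares were 10.8% and 20.1% for Ccl8 and 8.33% and 20.3% for Gpnmb. Ccl8 was at 769 CPM (746 to 794) in ENPP1CKO and 883 CPM (857 to 910) in control members. Gpnmb was the only 1 of the 5 past 1.5-fold, at 278 CPM (264 to 293) against 530 CPM (510 to 551), a log2 ratio of -0.93 (-1.03 to -0.84).

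The resident part of the label was carried by some genes and not by others. Lyve1, a hyaluronan receptor, had 9 counts over all ENPP1CKO members and 10 over all control members. It was found in 0.480% and 0.571% of members, beside 0.152% and 0.320% of fibroblasts. Timd4, a receptor for dead cells, had 2 counts in ENPP1CKO members and 0 in control members, where the exact 95% upper limit of the share of cells with a count is 0.3004%. These defining genes of long-lived resident macrophages were at or near 0. Cd163, a haemoglobin scavenger receptor, was found in 2.61% and 1.79% of members. The mannose receptor gene Mrc1 was broader, in 49.0% and 42.3%, while F13a1, a transglutaminase, was in 25.5% and 21.4% and the folate receptor gene Folr2 in 16.7% and 15.2%. On the other side, Ccr2 was found in 9.88% and 10.7% of members against 37.8% and 43.2% of MHC class II high macrophages. Ly6c2, a marker of inflammatory monocytes, was found in 1.03% and 1.31% of members. Fibroblasts held counts of Ly6c2 in 0.182% and 0.320%, of Ccr2 in 0.334% and 1.22% and of Cd163 in 0.0304% and 0.0640%. For Mrc1 these fibroblast shares were 0.577% and 1.09%, for F13a1 0.425% and 0.576% and for Folr2 0.638% and 0.512%.

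Against the MHC class II high macrophages, the members had higher levels of Spp1, Gpnmb, Folr2 and F13a1 and lower levels of Ccr2 and the H2-DM genes. The ranking by MHC class II chose the cells, so these ratios are descriptions. Of 6920 genes with at least 50 counts in each library, 313 (4.52%) were past 1.5-fold higher and 81 (1.17%) past 1.5-fold lower in members in both libraries, with medians of 0.14 and 0.13 over all genes. Of the resident macrophage list 9 of 14 measured genes were higher and 0 lower. Folr2 was higher by 1.68 in ENPP1CKO and 2.20 in control on the log2 scale, F13a1 by 2.01 and 1.67, and Gas6, the bridging ligand that tags dead cells for uptake, by 1.83 and 1.55. Of the lipid-associated list 9 of 21 were higher and 1 lower, with Spp1 at 2.00 and 2.62 and Gpnmb at 2.11 and 1.73. Of 39 lysosomal genes 7 were higher and 0 lower, among them the protease gene Ctsd at 1.55 and 1.61. Of 19 genes for phagocytosis of dead cells 7 were higher and 1 lower.

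Lower in members were H2-DMb1 (-3.01 and -3.28) and H2-DMa (-2.32 and -2.86), which load peptides onto MHC class II. Beside them stood Ccr2 (-2.31 and -2.08), the phospholipase-like gene Plbd1 (-2.24 and -2.60) and genes of NF-kB signalling, Traf1 (-1.55 and -1.33) and Tnip3 (-1.31 and -1.49). Bcl2a1a, a survival gene with near-identical copies between which reads may be split, was at -1.66 and -1.80. Of 10 measured monocyte-derived markers 5 were lower and 1 higher. Ccl8 differed between libraries in this ratio, at 1.99 in ENPP1CKO and 0.23 in control, since MHC class II high macrophages had 194 CPM in ENPP1CKO and 753 CPM in control macrophages.

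The levels of Gpnmb, Spp1, Il1b and Ccr2 were followed along the ranking. The ranking was split into 4 equal bins over both libraries, the lowest 3 of which are the members. In ENPP1CKO macrophages Gpnmb was at 380, 265, 180 and 64.6 CPM from the lowest to the highest bin. In control macrophages it was at 680, 559, 345 and 159 CPM. Gpnmb was thus lower with each step of MHC class II in both libraries, and higher in the control library in each bin. Spp1 was at 2984, 1750, 1442 and 521 CPM in ENPP1CKO and at 6091, 4420, 1675 and 665 CPM in control macrophages. Il1b, the gene of interleukin 1 beta, ran the other way, at 1325, 1605, 2150 and 2808 CPM and at 418, 512, 1262 and 2146 CPM. The genotypes were furthest apart in Il1b in the lowest bins and closest in the highest. Ccr2 was at 24.9, 32.3, 82.9 and 228 CPM in ENPP1CKO and at 21.9, 54.2, 104 and 253 CPM in control macrophages. The 100 members just inside the threshold, over both libraries, had 1.19% to 1.73% of their counts in the 4 MHC class II genes and the 100 macrophages just outside had 1.74% to 2.46%. On these sides Gpnmb was at 298 and 325 CPM, Trem2 at 935 and 820 CPM and Ccr2 at 66.6 and 114 CPM.

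**Figure D1:**
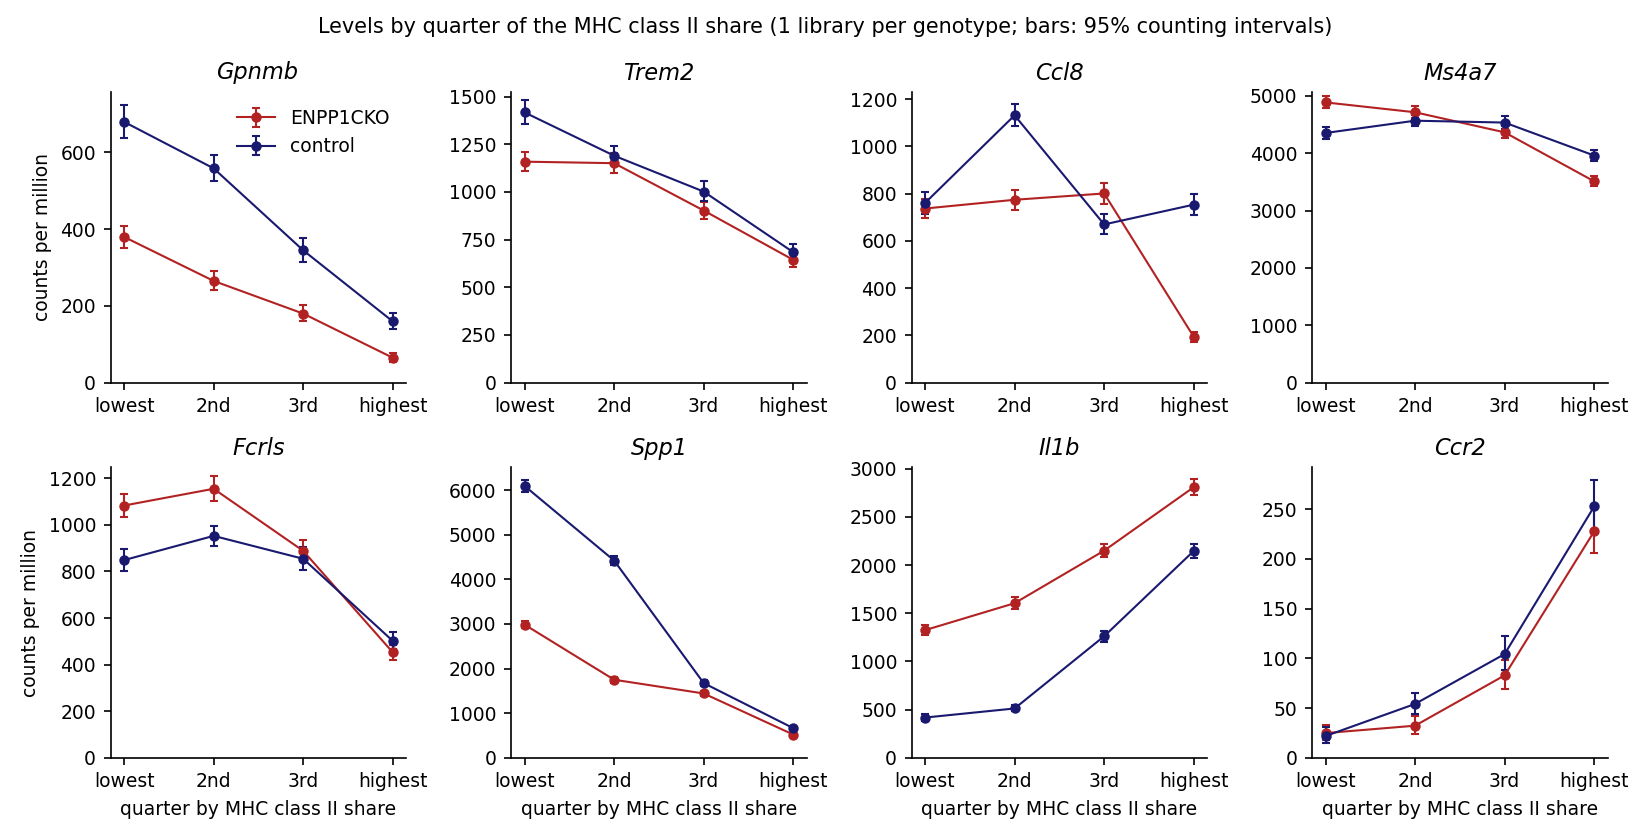
Levels in CPM of genes along the MHC class II ranking, from the lowest to the highest of 4 bins of macrophages, in both libraries, with 95% counting intervals as bars. Gpnmb ran from 380 to 64.6 CPM in the ENPP1CKO and from 680 to 159 CPM in the control macrophages, and Il1b ran the other way.

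The members were not uniform. To compare cells of unequal depth, each was thinned to 1000 counts, which left 1418 ENPP1CKO and 1154 control members and left out 40 and 72 shallower ones. Cells with at least 3 counts of Spp1, Gpnmb and Fabp5 together, called Spp1/Gpnmb/Fabp5 cells, numbered 399 (28.1%, 25.8% to 30.6%) in ENPP1CKO and 544 (47.1%, 44.2% to 50.1%) in control macrophages. Cells with at least 2 counts of Il1b numbered 435 (30.7%) and 195 (16.9%). Cells with a count of F13a1, Folr2 or Cbr2, genes of resident macrophages, numbered 258 (18.2%) and 170 (14.7%). These classes are ranges of a continuous count and not cell types. For the first, 92 and 107 members lay at the limit and 116 and 130 lay 1 count below it, and for Il1b these numbers were 114 and 69, and 157 and 107. For F13a1, Folr2 or Cbr2 most of the class, 180 and 125 cells, lay at the limit with a single count. In fibroblasts the same limits were met by 1.63% and 1.18% of cells for Spp1, Gpnmb and Fabp5 and by 0.0625% and 0.0657% for Il1b, and 0.438% and 0.197% had a count of F13a1, Folr2 or Cbr2. Endothelial cells met the first limit in 25.4% and 10.2%. In MHC class II high macrophages 7.05% and 10.6% met the limit for Spp1, Gpnmb and Fabp5 and 48.3% and 44.6% met that for Il1b. Without thinning, Spp1 counts were found in 61.9% and 77.7% of members (15.2% and 27.1% of fibroblasts) and Il1b counts in 52.4% and 38.7% (5.10% and 7.87% of fibroblasts).

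**Figure D2:**
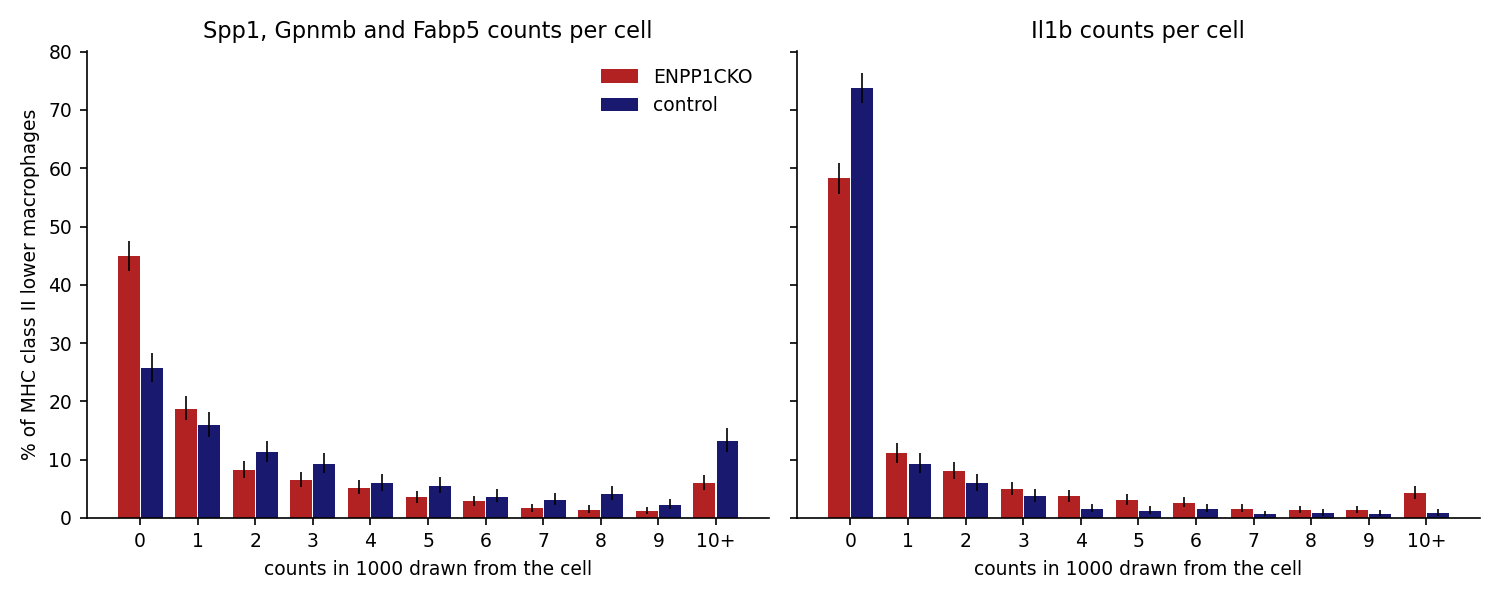
Share of members (%) by the number of counts per cell among 1000 counts drawn from it, for Spp1, Gpnmb and Fabp5 together and for Il1b, in the ENPP1CKO and the control library, with exact 95% intervals as bars. The control library has more cells at 10 or more counts of the first set, the ENPP1CKO library more at 2 or more counts of Il1b.

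The overlap of the classes was counted in each library. Of the Spp1/Gpnmb/Fabp5 cells 14.8% in ENPP1CKO and 8.46% in control macrophages also met the limit for Il1b, against 36.9% and 24.4% of the other members. Cells with F13a1, Folr2 or Cbr2 had a Ccl8 count in 35.7% and 27.6%, against 14.3% and 21.6% of the others. Members in none of these 3 classes and without a Ccl8 count numbered 449 (31.7%) and 301 (26.1%). Genes outside the defining sets followed the classes in both libraries. In Spp1/Gpnmb/Fabp5 cells 83 of 6205 genes (1.34%) were past 1.5-fold higher and 205 (3.3%) lower than in the other members in both libraries, with the defining genes left out. Ranked by the smaller of both ratios, Mmp12, the macrophage elastase, led at log2 ratios of 3.96 in ENPP1CKO and 1.46 in control. The lysosomal proteases Ctsl (1.29 and 1.54) and Ctsd (1.19 and 1.10), the galectin Lgals3 (1.34 and 1.16), the lipase Lpl (1.80 and 1.15) and the glutathione transferase Mgst1 (1.23 and 1.22) followed. Ranked in the same way, Il1b led the lower genes, at -1.74 and -1.80. Of 26 measured inflammatory genes 10 were lower and 0 higher in these cells.

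In Il1b cells 212 of 6207 genes (3.42%) were past 1.5-fold higher and 142 (2.29%) lower in both libraries. Higher were the neutrophil chemokine Cxcl1 (2.25 and 2.41), Tnip3, a brake on NF-kB (1.98 and 2.64), the NF-kB subunit Rel (1.62 and 2.00), the inflammasome sensor Nlrp3 (1.55 and 1.71) and Nfkbiz (1.38 and 1.59). Bcl2a1d, again a gene with near-identical copies, was at 1.81 and 2.27. Of 25 inflammatory genes 15 were higher and 1 lower, and of 20 lipid-associated genes 0 were higher and 11 lower. Gpnmb was at -2.30 and -2.10 in them, Spp1 at -1.70 and -1.91 and the scavenger receptor Cd36 at -1.47 and -1.47. In cells with F13a1, Folr2 or Cbr2, 82 of 6205 genes (1.32%) were higher and 63 (1.02%) lower in both libraries, and of 11 measured resident genes 7 were higher and 0 lower. Ltc4s, which makes the leukotriene C4, was at 1.48 and 1.87, Ccl8 at 1.99 and 1.28, Ccl7 at 1.07 and 1.47 and Mrc1 at 1.01 and 0.97, while Mmp12 was lowest at -4.21 and -2.32.

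**Figure D3:**
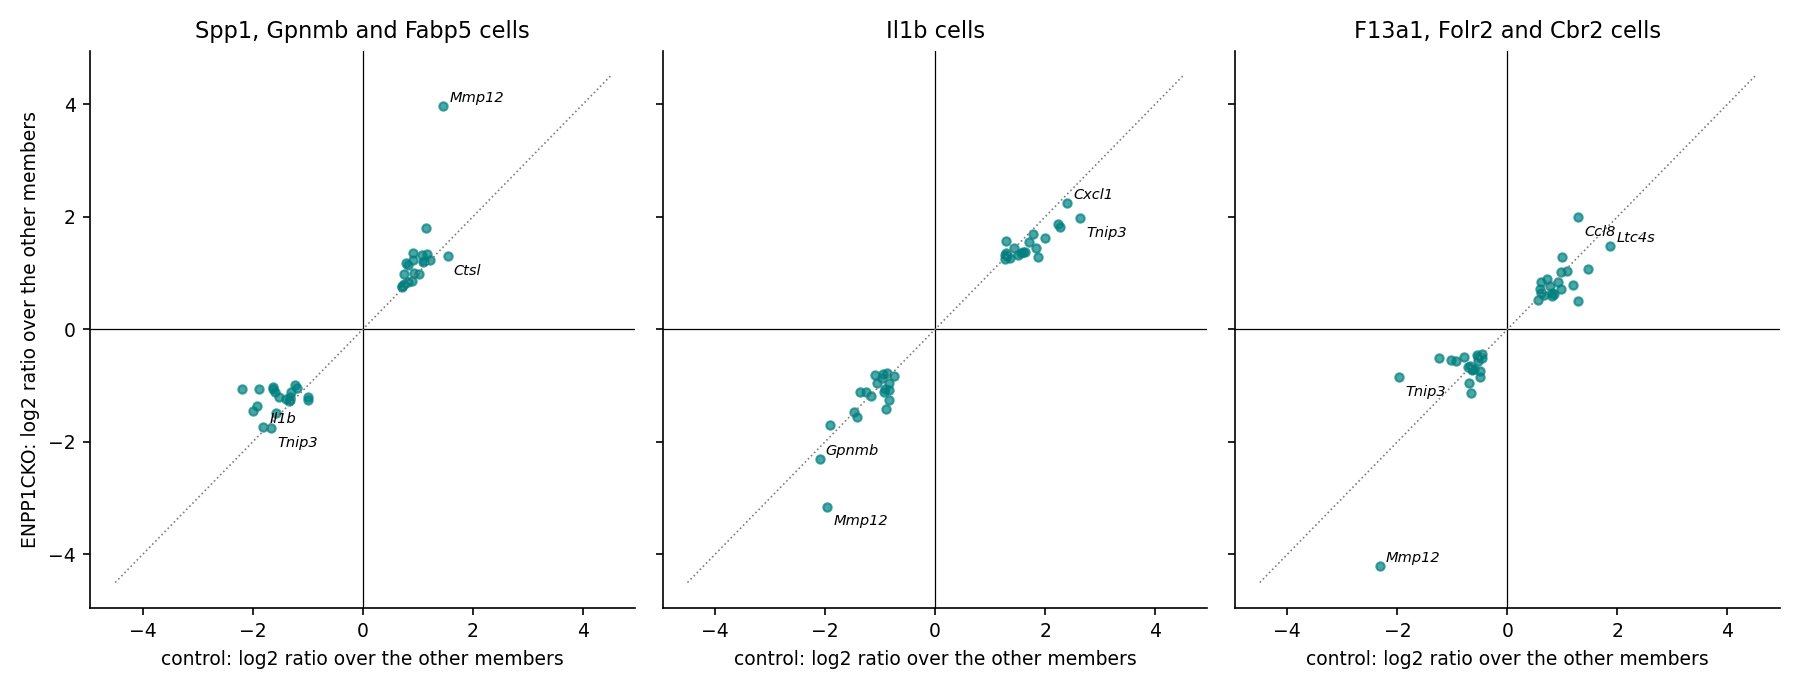
Log2 ratios of the 20 highest and 20 lowest genes of each class over the other members, with the control library on the x axis and the ENPP1CKO library on the y axis. Points lie in the same quadrant because both libraries had to show the direction, and Mmp12 in Spp1/Gpnmb/Fabp5 cells stands off the diagonal at 1.46 and 3.96.

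The promoters of the leading genes of these classes were searched on both strands for 5 short motifs in windows from 250 bases before to 50 after the start site, from RefSeq on GRCm38.p6. The NF-kB consensus was present in 8.46% of all 32851 windows. It was present in 6 of 17 windows (35.3%) of the Il1b class, those of Cxcl1, Gpr132, Nlrp3, Rel, Sdc4 and Tnip3, in 3 of 24 (12.5%) of the Spp1/Gpnmb/Fabp5 class and in 0 of 23 of the class with F13a1, Folr2 or Cbr2. The CLEAR-like motif TCANGTGA, with any base at N, is a looser form of the CLEAR element bound by regulators of lysosomal genes. It was in 4.18% of all windows and in 4 of 24 (16.7%) of the Spp1/Gpnmb/Fabp5 class, those of Ctsd, Il7r, Lgals3 and Mmp12. Of the other classes it was in 1 of 17 (5.88%) and 0 of 23. The C/EBP motif TTGCNNAA was in 10.8% of all windows, in 8 of 24 (33.3%) of the Spp1/Gpnmb/Fabp5 class and in 0 of 17 of the Il1b class and 3 of 23 (13.04%) of the class with F13a1, Folr2 or Cbr2. The AP-1 motif TGANTCA was in 7.81% of all windows and in 4 of 24 (16.7%), 2 of 17 (11.8%) and 3 of 23 (13.04%) of the 3 classes in this order, and the glucocorticoid receptor motif ACANNNTGT was in 6.85% of all windows and in 1 of 24 (4.17%), 2 of 17 (11.8%) and 3 of 23 (13.04%). Of the leading genes of each class 18 of 23, 14 of 21 and 19 of 23 had a window. A match describes letters and does not show binding. Promoters of 4 genes are shown, each as the 250 bases before the start site, with the match in capitals. They show NF-kB matches of the Il1b class beside CLEAR-like matches of the Spp1/Gpnmb/Fabp5 class. The window of Lgals3, like those of Mmp12 and Psap in its class, also holds an NF-kB match, which is not in capitals. Cxcl1 lies on the + strand at chr5:90890995-90891244, where 2 overlapping matches begin 71 bases before the start site, and Tnip3 on the + strand at chr6:65590148-65590397, with the match 54 bases before it. Ctsd lies on the - strand at chr7:142387828-142388077 with a CLEAR-like match, with C at N, 99 bases before its start. Lgals3 lies on the + strand at chr14:47373610-47373859 with a CLEAR-like match, with G at N, 224 bases before its start.
Cxcl1: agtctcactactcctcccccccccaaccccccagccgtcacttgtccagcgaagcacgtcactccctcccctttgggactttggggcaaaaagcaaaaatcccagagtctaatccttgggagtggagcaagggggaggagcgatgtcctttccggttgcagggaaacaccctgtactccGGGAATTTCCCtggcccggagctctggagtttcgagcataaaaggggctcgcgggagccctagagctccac
Tnip3: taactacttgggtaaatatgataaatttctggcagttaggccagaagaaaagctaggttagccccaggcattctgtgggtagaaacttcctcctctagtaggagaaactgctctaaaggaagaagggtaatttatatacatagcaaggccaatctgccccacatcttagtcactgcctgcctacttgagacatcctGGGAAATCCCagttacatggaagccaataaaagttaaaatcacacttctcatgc
Ctsd: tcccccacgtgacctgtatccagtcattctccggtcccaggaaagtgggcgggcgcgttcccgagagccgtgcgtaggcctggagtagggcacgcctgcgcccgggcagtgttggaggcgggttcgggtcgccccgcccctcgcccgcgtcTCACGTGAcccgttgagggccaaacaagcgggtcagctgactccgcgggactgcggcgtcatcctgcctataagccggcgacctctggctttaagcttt
Lgals3: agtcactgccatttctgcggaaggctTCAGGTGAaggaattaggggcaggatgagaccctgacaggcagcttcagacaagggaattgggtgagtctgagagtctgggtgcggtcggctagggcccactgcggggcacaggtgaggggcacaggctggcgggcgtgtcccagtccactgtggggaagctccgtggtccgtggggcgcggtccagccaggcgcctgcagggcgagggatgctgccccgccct

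Between genotypes, ENPP1CKO members had higher levels of Il1b and several chemokines and lower levels of Spp1, Gpnmb, Fabp5 and some lysosomal genes, such as Lamp1, than control members. Of 8274 genes with at least 50 counts, 278 (3.36%) were past 1.5-fold higher and 471 (5.69%) past 1.5-fold lower, and for 230 and 381 of these the counting interval excluded 0. Enpp1 itself checked the labels. In fibroblasts, the cells in which the driver acts, it had 392 counts in ENPP1CKO and 1109 in control cells, a log2 ratio of -2.23 (-2.40 to -2.06). In members it was at 12.5 CPM (9.62 to 15.95) and 15.0 CPM (11.8 to 18.9), a log2 ratio of -0.27 (-0.77 to 0.24), so that no difference was detectable at this depth. Enpp1 counts were found in 4.32% and 5.55% of members, at or below the 9.72% and 40.1% of fibroblasts.

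Of 21 measured genes of the lipid-associated list, 7 were past 1.5-fold lower and 1 higher in ENPP1CKO members, with 18 of the 21 below 0 and a median of -0.40. Spp1, a secreted matrix protein and cytokine, was at 2087 CPM (2048 to 2127) in ENPP1CKO and 4090 CPM (4033 to 4147) in control members, a log2 ratio of -0.97 (-1.005 to -0.936). Fabp5, a fatty acid carrier, was at 632 CPM (610 to 654) and 1234 CPM (1202 to 1266), also -0.97. With Gpnmb these genes of lipid-laden macrophages were near a 2-fold difference, while Trem2, their receptor gene, stayed within 1.5-fold. Lgals3 (2566 and 4027 CPM, -0.65) and Ctsl (538 and 876 CPM, -0.70) were lower as well. So was Ctsd (2502 and 3840 CPM, -0.62), but it was within 1.5-fold, at -0.53, without the gate that includes Ccl24 and Slpi. The exception on the list was Fabp4 at 231 and 87.2 CPM (1.41), which fibroblasts shared at 2.20. It is an abundant gene of endothelial cells. Of 40 lysosomal genes 6 were lower and 0 higher, with 36 of the 40 below 0 and a median of -0.17. Lamp1, a coat protein of the lysosome membrane, was at 379 and 791 CPM (-1.06) and was also lower in fibroblasts (-0.66). Of 20 genes of glycolysis and hypoxia 2 were lower, Gapdh (-0.67) and Pgk1 (-0.70), and 17 were below 0. In fibroblasts the ratio of Spp1 was -0.19 and that of Gpnmb -0.28, and in MHC class II high macrophages they were -0.35 and -1.30.

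Among 27 measured inflammatory genes 4 were past 1.5-fold higher and 3 lower, with 20 above 0 and a median of 0.28. Il1b was at 1681 CPM (1645 to 1716) in ENPP1CKO and 709 CPM (686 to 734) in control members, a log2 ratio of 1.24 (1.19 to 1.30). Il10, an anti-inflammatory cytokine, was at 41.4 and 17.3 CPM (1.26), Nfkbiz at 0.77 and the adhesion molecule Vcam1 at 49.97 and 18.6 CPM (1.43). Tnf (0.21), Nlrp3 (0.36) and the antagonist Il1rn (0.10) were within 1.5-fold. The 3 lower were Saa3 (-3.25), the transcription factor gene Cebpb (-0.71) and the lipopolysaccharide receptor gene Tlr4 (-0.63). Of 17 chemokines 5 were higher and 3 lower, with a median of 0.29 (-0.04 without the gate that includes Ccl24 and Slpi). Ccl7, which draws monocytes, was at 393 CPM (376 to 411) and 170 CPM (159 to 182), a log2 ratio of 1.21, and Ccl2 at 0.64. Ccl3 (802 and 431 CPM, 0.90) and Ccl4 (2120 and 1176 CPM, 0.85), which draw monocytes and T cells, and the neutrophil chemokine Cxcl2 (2590 and 1526 CPM, 0.76) were the other higher ones. The 3 lower chemokines were the sparse Cxcl3 (-0.59), Cxcl9 (-0.71) and Cxcl14 (-0.60). In fibroblasts the ratios of Il1b (-0.44), Ccl7 (-0.47), Ccl3 (-0.22), Ccl4 (-0.30), Cxcl2 (-0.61) and Vcam1 (-0.32) were below 0, and in MHC class II high macrophages Il1b (0.39), Ccl7 (0.75), Ccl3 (0.25), Ccl4 (0.17) and Cxcl2 (0.19) were above 0 and Vcam1 (-0.57) below.

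**Figure D4:**
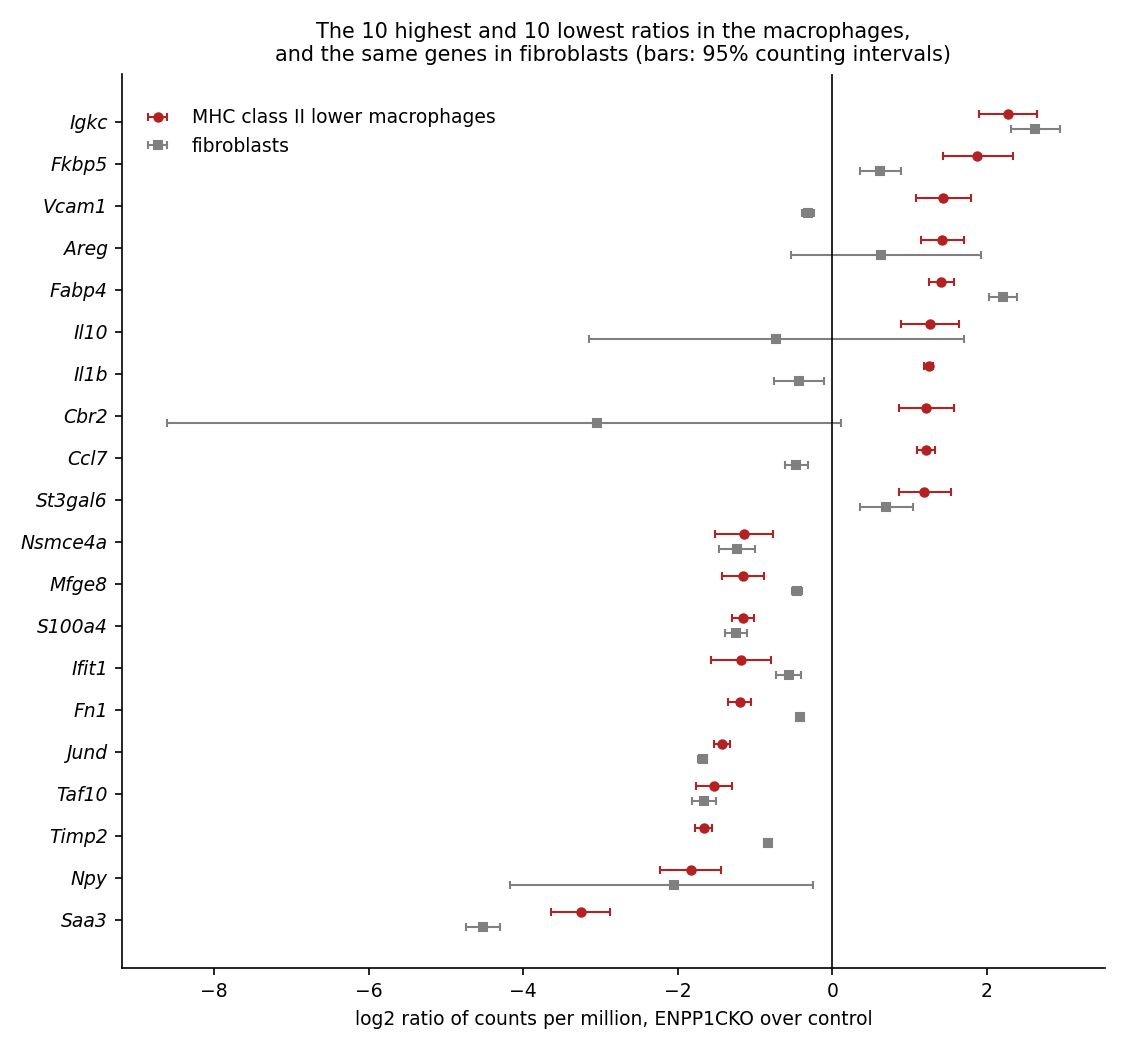
Log2 ratios of ENPP1CKO over control for the 10 genes with the highest and the 10 with the lowest ratios in members, with exact 95% counting intervals, beside the same genes in fibroblasts. Il1b at 1.24 and Vcam1 at 1.43 in members lie below 0 in fibroblasts (-0.44 and -0.32), while Igkc, Saa3, Jund and Taf10 lie on the same side in both.

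The genes with the highest and lowest ratios included several that differed in the same direction in fibroblasts. Igkc, an antibody chain of plasma cells, was at 72.2 and 15.0 CPM (2.27) in members and had a ratio of 2.62 in fibroblasts. It was found in 21.4% and 5.71% of members and in 22.1% and 5.63% of fibroblasts. Saa3, an acute phase gene, was at 12.5 and 119 CPM (-3.25) and had -4.52 in fibroblasts, with counts in 0.892% and 19.7% of members and in 0.699% and 18.4% of fibroblasts. The shares in members and fibroblasts lay side by side for both genes. The part of free RNA in these values was not tested. Of the 64 counts of Saa3 in ENPP1CKO members, 51 lay in the 32 cells without an Ms4a7 count that are described further on. Taf10 (40.2 and 116 CPM, -1.53), Jund (210 and 565 CPM, -1.43) and Nsmce4a (17.4 and 38.4 CPM, -1.14), expressed in most cell types, had -1.66, -1.68 and -1.24 in fibroblasts. Timp2, a metalloproteinase inhibitor, was at 161 and 513 CPM (-1.67), with -0.84 in fibroblasts, -1.57 in endothelial cells and -1.71 in MHC class II high macrophages. These differences were shared by other cell types of the libraries and were not particular to the members. Npy, neuropeptide Y, was at 14.3 and 50.7 CPM (-1.83) in members and had 4 and 10 counts in fibroblasts and 6 and 4 in MHC class II high macrophages.

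Of 13 measured genes of the list induced by glucocorticoids 4 were higher and 0 lower in ENPP1CKO members, with 11 above 0 and a median of 0.37. Fkbp5, a chaperone of the glucocorticoid receptor, was at 41.2 and 11.3 CPM (1.87) and Tsc22d3, which encodes GILZ, at 291 and 133 CPM (1.13). Cd163 (0.77) and the stress gene Ddit4 (0.70) were the others. Without the gate that includes Ccl24 and Slpi, Cd163 was at -0.44, Ddit4 was within 1.5-fold at 0.55 and the list's median was 0.27. Tsc22d3 was at 2.03 in fibroblasts and 1.52 in endothelial cells and Fkbp5 at 0.62 and 1.36, so this difference also spanned cell types. Of 22 immediate early and dissociation genes 4 were higher and 3 lower, with a median of 0.34. Fos (0.62) and Jun (0.72) were among the higher ones, while Jund, the zinc finger gene Klf2 (-0.90) and the heat shock gene Hsph1 (-1.05) were the lower ones.

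Of 16 measured resident macrophage genes 2 were higher and 0 lower in ENPP1CKO members, with 13 above 0 and a median of 0.33. Cbr2, a carbonyl reductase, was at 45.9 and 19.8 CPM (1.21), and Cd163 was the other, which was at -0.44 without the gate that includes Ccl24 and Slpi. Without this gate the median of the resident list was 0.07 and Cbr2 was at 0.74. Mrc1 (288 and 202 CPM, 0.51), F13a1 (0.37) and Folr2 (0.24) were within 1.5-fold. Of 12 monocyte-derived markers 5 were lower and 1 higher, with a median of -0.52. The list's summed level was 843 and 1390 CPM in members, beside 3080 and 4312 CPM in fibroblasts, so it was not particular to macrophages. In members Fn1, fibronectin, was at 105 and 242 CPM (-1.20) and S100a4 at 122 and 272 CPM (-1.16, beside -1.25 in fibroblasts). The 1 higher was Ly6c2 (1.21), with 42 and 17 counts, but fewer ENPP1CKO than control members held one (1.03% and 1.31%), and its ratio was 0.02 when cells were thinned. Without the gate that includes Ccl24 and Slpi, the median of the monocyte-derived list was -1.44, Fn1 was at -2.32, Saa3 at -5.18 and Ly6c2 at 0.53. Ccr2 was within 1.5-fold at -0.38.

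Fn1, a gene of the monocyte-derived list, had a higher level in the few members without an Ms4a7 count than in the rest. Those few numbered 32 (2.19%) in ENPP1CKO and 87 (7.10%) in control macrophages. These cells had medians of 1183 and 1054 counts. Fn1 was at 1783 and 2934 CPM in them, against 87.4 and 181 CPM in members with Ms4a7. Saa3 was at 947 and 1651 CPM against 2.56 and 84.3 CPM, and the thrombospondin gene Thbs1 at 743 and 3142 CPM. Without these cells, an alternative chosen after seeing the data, the ratio of Fn1 was -1.05, that of Saa3 -5.04 and the median of the monocyte-derived list -0.41. Of 8196 genes then counted, 294 were past 1.5-fold higher and 442 lower.

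**Figure D5:**
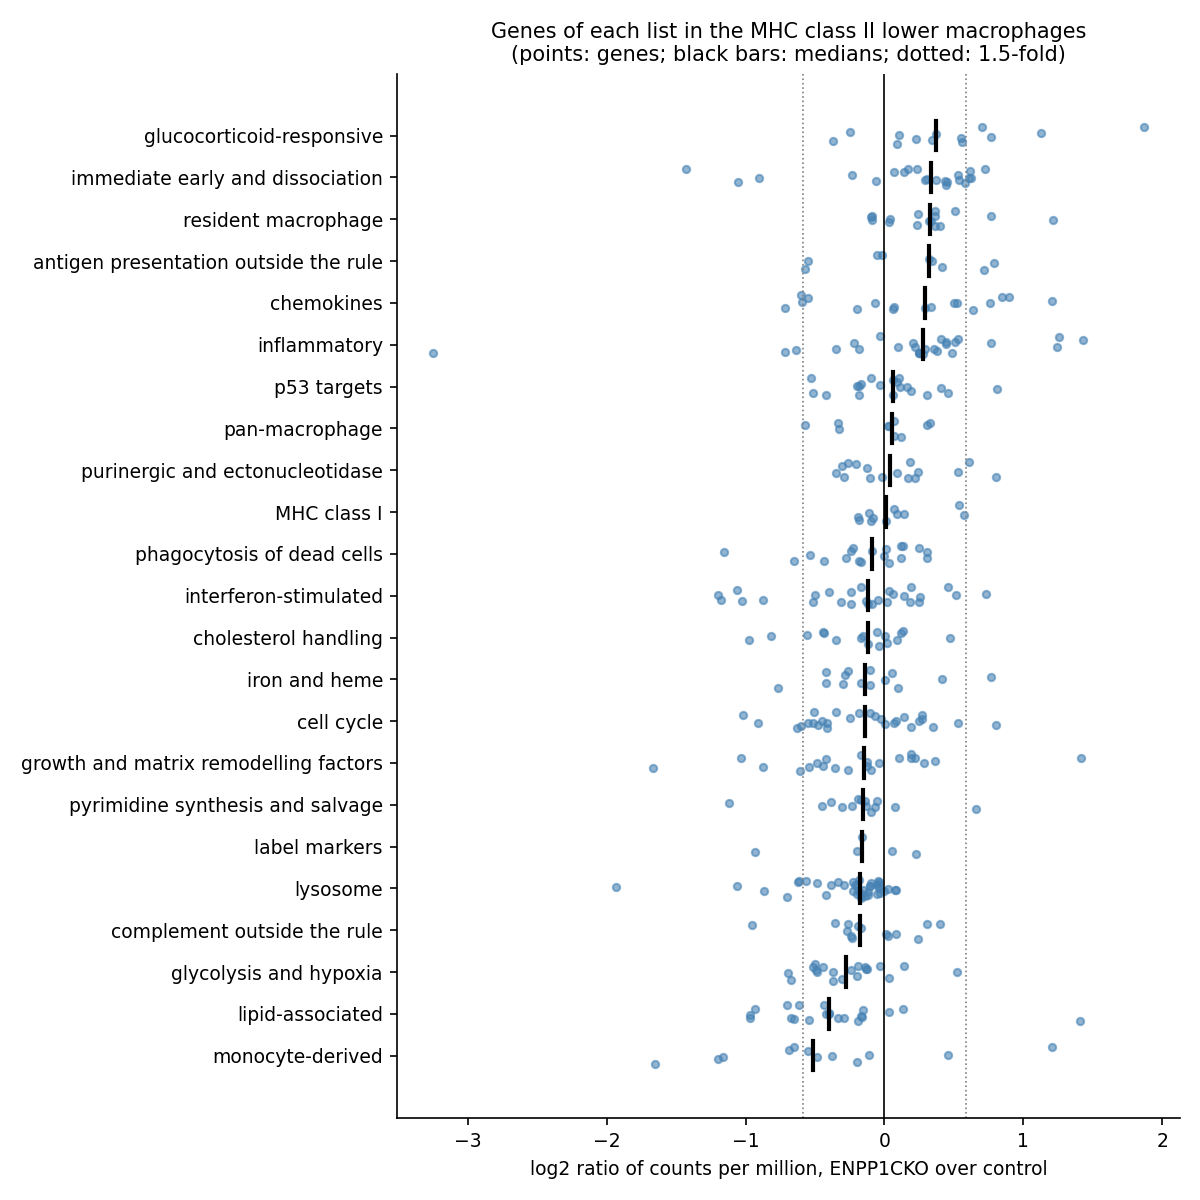
For each gene list, the log2 ratios of ENPP1CKO over control of its measured genes in members, with the list's median. The median of the lipid-associated list is at -0.40 and that of the glucocorticoid-responsive list at 0.37, beside -0.05 over all genes.

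Antigen presentation genes outside the ranking had 2 of 9 higher and 0 lower, the co-stimulatory genes Cd86 (193 and 112 CPM, 0.79) and Cd83 (996 and 606 CPM, 0.72), while the protease gene Ctss was at -0.57. MHC class I genes had 0 of 11 past 1.5-fold in either direction, with a median of 0.01 that changed sign with the settings. Of 27 interferon-stimulated genes 5 were lower and 1 higher. Ifit1 was at 16.2 and 36.7 CPM (-1.18), while Isg15 (-0.09) and Irf7 (0.19) were within 1.5-fold. Of 22 growth and matrix remodelling factors 4 were lower and 1 higher, the last being Areg, amphiregulin, an epidermal growth factor receptor ligand, at 80.8 and 30.3 CPM (1.42). Of 19 genes for phagocytosis of dead cells 2 were lower, among them Mfge8, a bridge to dead cells, at 32.8 and 73.2 CPM (-1.16), and 0 were higher. Of 14 genes of iron and heme handling 1 was higher and 1 lower, the latter Hmox1, heme oxygenase 1, at 212 and 361 CPM (-0.77). Cholesterol handling genes had 2 of 17 lower and 0 higher, and complement genes outside the gate 1 of 14 lower and 0 higher.

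Because the study concerns extracellular nucleotides and pyrimidines, genes of both were counted. Of 16 measured purinergic genes 2 were higher and 0 lower, with a median of 0.04. This median was below 0 when cells were thinned, and was -0.13 without the gate that includes Ccl24 and Slpi. The adenosine receptor gene Adora2b was at 37.9 and 21.7 CPM (0.80) and P2ry12, an ADP receptor, at 0.61. Entpd1 (CD39), which hydrolyzes extracellular ATP, was at 110 and 76.1 CPM (0.53), and Nt5e (CD73), which makes adenosine from AMP, was at 0.09. Of 14 pyrimidine synthesis and salvage genes 1 was higher and 1 lower, with a median of -0.16. The higher was Dhodh, with 32 and 19 counts (0.66), which was at -0.52 when cells were thinned. Of 20 p53 targets 1 was higher and 0 lower, and of 28 cell cycle genes 1 was higher and 4 lower. Mki67, a marker of cycling cells, was found in 3.77% and 3.92% of members. It was found in 0.760% and 1.92% of fibroblasts and in 3.86% and 3.97% of MHC class II high macrophages.

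Within the classes, the genotype ratios were compared side by side, with no test of the difference. Il1b was at 657 and 325 CPM (1.01) in Spp1/Gpnmb/Fabp5 cells and at 2194 and 1137 CPM (0.95) in the other members, so that the ratio was similar in both. Ccl3 was at 812 and 321 CPM (1.34) in Spp1/Gpnmb/Fabp5 cells and had a ratio of 0.51 in the others. In Il1b cells Ccl3 was at 744 and 766 CPM (-0.04, -0.19 to 0.11), against 825 and 372 CPM (1.15) in the other members. Ccl4 was at 2405 and 2168 CPM (0.15, 0.06 to 0.24) in Il1b cells and at 1.01 in the others, and at 1.33 in Spp1/Gpnmb/Fabp5 cells and 0.43 in the others. Ccl7 had the opposite order, at 1.73 (1.45 to 2.02) in Il1b cells and 0.98 in the others, and at 0.57 in Spp1/Gpnmb/Fabp5 cells and 1.18 in the others. Ccl2 was at 0.53 in Il1b cells and 0.60 in the others, and at 0.78 in Spp1/Gpnmb/Fabp5 cells and 0.43 in the others.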

How the data were processed

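For 1 library per genotype, the authors deposited raw UMI counts, a count for each gene in each barcode, with no scaling; per the labels the pipeline used Cell Ranger and STAR 2.5.3a with mm10, and the version of Cell Ranger and the annotation are not given in the sources used here. Of 31053 gene identifiers 30934 were matched to symbols. Members and gene lists were chosen with earlier results of these data known. Counts were summed per library and class in Python 3.11.15 (numpy 2.4.6, scipy 1.17.1, scanpy 1.11.5 for Scrublet) and divided by the library's counts in that class to give counts per 1000000 (CPM). Ratios have exact conditional binomial, levels exact Poisson and shares Clopper-Pearson 95% intervals. These cover counting error only. Genes with at least 50 counts were counted past 1.5-fold. Comparison cells were fibroblasts (at least 2% of counts in the 4 matrix genes and under 0.2% in MHC class II genes) and endothelial cells (at least 5 counts of Pecam1, Cdh5, Egfl7 and Fabp4), both under 0.3% in C1q genes.

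Genes were named by rule: the 5 label markers, the 10 highest and 10 lowest genotype ratios (at least 200 counts, 20 in each library), the 8 highest and 8 lowest against MHC class II high macrophages, and up to 4 per list with its defining genes. Genes of the classes within members were ranked by the smaller of both libraries' ratios, after their values were seen. Genes that passed neither rule but are named to describe a list or a class were chosen after their values were seen. Scaling alternatives used edgeR 4.0.16 (TMM) and DESeq2 1.42.0 (size factors) in R 4.3.3. Barcodes under 200 genes or above 20% mitochondrial counts were left out as an alternative. The ratios and intervals were tested on simulated data. The other samples of the series, which holds 37, were not analysed here. One gene of the gate that also holds Ccl24 and Slpi is not reported here.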

Additional observations from a re-analysis of the deposited data

Results flagged for a closer look

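For 6 genes picked by the rule for named genes and used in neither the gates nor the ranking, the log2 ratio of members over MHC class II high macrophages lay on opposite sides of 0 in the 2 libraries, with both counting intervals excluding 0. The difference was not tested, as each genotype had 1 library. Vcam1 was at 1.40 in ENPP1CKO and -0.60 in control macrophages. Ccl4 was at 0.35 and -0.32, and the immediate early gene Jun at 0.21 and -0.20. Tsc22d3 was at 0.29 and -0.26, and the cell cycle inhibitor gene Cdkn1a at 0.16 and -0.21. S100a4 had the opposite order, at -0.53 and 0.48.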

How the results depend on the processing

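No paired analysis was possible because each genotype had 1 library. With 1 library per genotype, differences between hearts and between preparations cannot be told apart from genotype, and counting intervals do not cover them. The counts of genes past 1.5-fold follow the count minimum and the fold chosen, and low genes pass more easily by counting noise. For ENPP1CKO over control, a minimum of 20 counts gave 570 higher and 845 lower of 10111 genes. A minimum of 200 gave 79 and 128 of 4542, and a 2-fold limit gave 79 and 80 of 8274. Keeping the lower 50% of the MHC class II ranking gave 803 control members. For members over MHC class II high macrophages, 20 counts gave 528 higher and 134 lower of 8936 genes. A minimum of 200 gave 96 and 37 of 3194, and a 2-fold limit gave 61 and 25 of 6920. Thinning to 1000 counts left 3234 genes counted, of which 160 were higher and 46 lower. Keeping the lower 50% also changed the comparison cells to the upper 50%, and gave 126 higher and 85 lower of 6920. TMM and median-of-ratios scaling moved all ratios by 0.05 and gave 342 and 332 higher and 391 and 393 lower. Of 749 genes past 1.5-fold, 701 to 749 kept their sign over 11 alternatives and 506 (thinned) to 743 stayed past it. Without the gate that includes Ccl24 and Slpi, 781 of 8528 genes were lower. Of the 749 genes, 598 then stayed past 1.5-fold, with Gpnmb at -0.69 and Il1b at 1.32. Ctsd (-0.53), Ddit4 (0.55), Dhodh (0.55), Tagln (0.42) and Ly6c2 (0.53) were then within 1.5-fold. Reversed were Cd163 without this gate (-0.44), Dhodh when thinned (-0.52), Acta2 with the fibroblast profile subtracted (0.0729), and Tagln without doublets and low-quality barcodes (-0.90) and when thinned (-0.0748). The cause was not tested. Leaving out this gate, shared barcodes or members without Ms4a7 was chosen after seeing the data.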
